A study of Caenorhabditis elegans with 3 samples.

Results

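EGL-27 regions at transfer RNA (tRNA) and small nucleolar RNA (snoRNA) genes were taken from the authors' pooled list of relaxed regions, made by chromatin immunoprecipitation sequencing (ChIP-seq) in Caenorhabditis elegans, a nematode, at the first larval stage (L1). A region was a member when its summit, the base of highest signal, lay within 500 bp of a gene annotated as tRNA or snoRNA in Ensembl WBcel235. The rule did not use the signal. It found 578 members among 30000 relaxed regions: 368 lay near a tRNA gene, 212 near a snoRNA gene, and 2 of these near both. The annotation held 612 tRNA genes and 346 snoRNA genes on the 6 nuclear chromosomes.

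The samples were 3 biological replicates of 1 group, so the study had no second condition and no untagged animals. All were whole L1 larvae of both sexes, pooled, from strain OP177 (unc-119(ed3) III; wgIs177), a stable line in which EGL-27 carries a GFP-FLAG tag at its C-terminus. The same control alignment served all 3 replicates. Because whole animals were used, strong binding in few cells and weak binding in many cannot be told apart. A relaxed list holds peaks together with background and is made as input for the irreproducible discovery rate (IDR) step. The authors' IDR list was exactly the top of the pooled list, holding every region with a signal of 28.9 or above. IDR membership and pooled signal are therefore one measure here. The relaxed lists of the replicates held 30000 regions in replicate 1, 30000 in replicate 2 and 13516 in replicate 3. The signal value is the authors' own height per region, on a scale that is not stated, and the read depth is unknown.

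EGL-27 has a GATA-type zinc finger and resembles MTA proteins, which are subunits of NuRD, a complex that remodels and deacetylates chromatin. tRNA genes are transcribed by RNA polymerase III from promoter elements inside the gene, the A box near its start and the B box in its second part, and their products carry amino acids to the ribosome. snoRNAs guide chemical modification of ribosomal RNA in the nucleolus. Many snoRNAs are cut from introns of protein-coding host genes, often genes for ribosomal proteins, while others have promoters of their own.

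The sequences of 3 tRNA genes and 3 snoRNA genes are shown to place the summits on the genes. They are the genes of highest signal whose IDR summit lay inside the gene or in the 100 bp upstream, among genes of chromosomes II, III, IV, V and X in stretches free of protein-coding exons. The 100 bases upstream are in lower case and the gene is in capitals, 5′ to 3′ on the gene's strand, from RefSeq sequence of the same WBcel235 assembly.
F41D9.t3: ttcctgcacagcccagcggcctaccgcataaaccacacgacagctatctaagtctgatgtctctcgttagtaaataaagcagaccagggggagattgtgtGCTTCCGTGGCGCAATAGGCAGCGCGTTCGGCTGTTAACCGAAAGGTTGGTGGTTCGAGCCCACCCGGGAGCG
C33G3.t2: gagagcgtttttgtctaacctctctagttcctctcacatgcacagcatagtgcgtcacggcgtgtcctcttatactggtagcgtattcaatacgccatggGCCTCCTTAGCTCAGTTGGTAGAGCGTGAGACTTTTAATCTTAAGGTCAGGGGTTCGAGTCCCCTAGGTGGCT
C42D8.t1: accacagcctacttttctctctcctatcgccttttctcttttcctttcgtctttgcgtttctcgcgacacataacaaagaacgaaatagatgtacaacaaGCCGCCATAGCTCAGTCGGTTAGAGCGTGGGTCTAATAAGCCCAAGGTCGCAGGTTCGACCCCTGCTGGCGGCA
Y53F4B.47: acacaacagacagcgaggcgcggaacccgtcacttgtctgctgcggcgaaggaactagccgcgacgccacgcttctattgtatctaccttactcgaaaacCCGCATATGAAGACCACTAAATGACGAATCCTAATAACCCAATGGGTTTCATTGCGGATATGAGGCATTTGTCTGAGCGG
Y53F4B.48: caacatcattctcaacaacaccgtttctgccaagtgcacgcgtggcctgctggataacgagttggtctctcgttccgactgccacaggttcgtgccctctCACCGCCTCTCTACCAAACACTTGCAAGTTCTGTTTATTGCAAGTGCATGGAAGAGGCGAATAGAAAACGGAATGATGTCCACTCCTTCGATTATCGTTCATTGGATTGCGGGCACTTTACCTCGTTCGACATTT
ZK20.9: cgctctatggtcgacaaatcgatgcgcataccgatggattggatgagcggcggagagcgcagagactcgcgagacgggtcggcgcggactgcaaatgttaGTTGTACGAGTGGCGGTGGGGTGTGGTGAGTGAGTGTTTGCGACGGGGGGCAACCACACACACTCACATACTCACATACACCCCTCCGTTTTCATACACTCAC

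In the printed runs, the summit fell on base 51 at F41D9.t3 (tRNA-Asn, chrX:8404399-8404571, plus strand) and on base 60 at C33G3.t2 (tRNA-Lys, chrX:14063946-14064118, minus strand). At C42D8.t1 (tRNA-Ile, chrX:5085622-5085795, minus strand) it fell on base 160, within the B box letters (GTTCNANNC), which start at base 154. The summits thus stood 50 bp and 41 bp upstream of the first 2 genes and inside the third. Among the snoRNA genes the summit fell on base 81 at Y53F4B.47 (chrII:15025814-15025993, minus strand), base 55 at Y53F4B.48 (chrII:15165894-15166128, minus strand) and base 40 at ZK20.9 (chrII:11635125-11635327, plus strand). All 3 were upstream of the gene's first base, by 20 bp, 46 bp and 61 bp. None of the 3 snoRNA genes has an annotated protein-coding host. The summit at Y53F4B.47 was also 201 bp upstream of the start of the protein-coding gene cmtr-1. That at Y53F4B.48 was 343 bp upstream of the start of gst-27.

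Members stood high in the pooled list. The median signal was 10.6 near tRNA genes and 10.4 near snoRNA genes, against 7.91 over all relaxed regions. These medians lay at percentiles 77.1 and 75.9 of the pooled list. The upper quartile was 14.8 near tRNA genes and 18.4 near snoRNA genes, against 10.2 over all regions. The biotypes thus had like medians but different upper tails. The same held in the 3000 highest regions, which included 26.6% of the tRNA-near members (95% exact binomial interval 22.2 to 31.5) and 36.8% of the snoRNA-near members (30.3 to 43.7), against 10% of all regions. Intervals cover the counting of regions only, and regions are not replicates.

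Of the 368 tRNA-near regions, 13 were in the IDR list (3.53%, 1.89 to 5.97), against 1.75% of all relaxed regions. Of the 212 snoRNA-near regions, 20 were (9.43%, 5.86 to 14.2). The tRNA interval begins just above the share of all regions, and the snoRNA interval lies well above it. The tRNA interval took in 1.75% with a window of 1000 bp (2.59%, 1.39 to 4.40) and without the regions within 20 kb of egl-27 (3.28%, 1.70 to 5.66), and the snoRNA interval stayed above it in both (lower bounds 5.16 and 5.16). For comparison, 7 of 70 regions near spliceosomal snRNA genes (10%, 4.12 to 19.5) and 7 of 117 near microRNA genes (5.98%, 2.44 to 11.9) were in the IDR list. Protein-coding promoter windows, from 1000 bp upstream to 200 bp downstream of a gene's start, gave 234 of 7739 regions (3.02%, 2.65 to 3.43). Such windows also held 22.3% of the tRNA-near and 32.5% of the snoRNA-near summits, against 25.8% of all. With the regions in these windows left out, the IDR share was 3.497% near tRNA genes (1.69 to 6.34) and 6.99% near snoRNA genes (3.404 to 12.5), against 1.30% of all regions outside them (290 of 22261). IDR was not rerun without a replicate. The share of members among the highest regions, as many as the IDR list holds, of both remaining replicates was 1.09% to 1.36% near tRNA genes and 3.30% to 4.25% near snoRNA genes, against 0.670% to 0.793% of all relaxed regions. The tRNA intervals included the share of all regions each time (lower bounds 0.297 to 0.443), and the snoRNA intervals did not (1.34 to 1.96). On this measure the tRNA excess was within counting error.

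**Figure D1:**
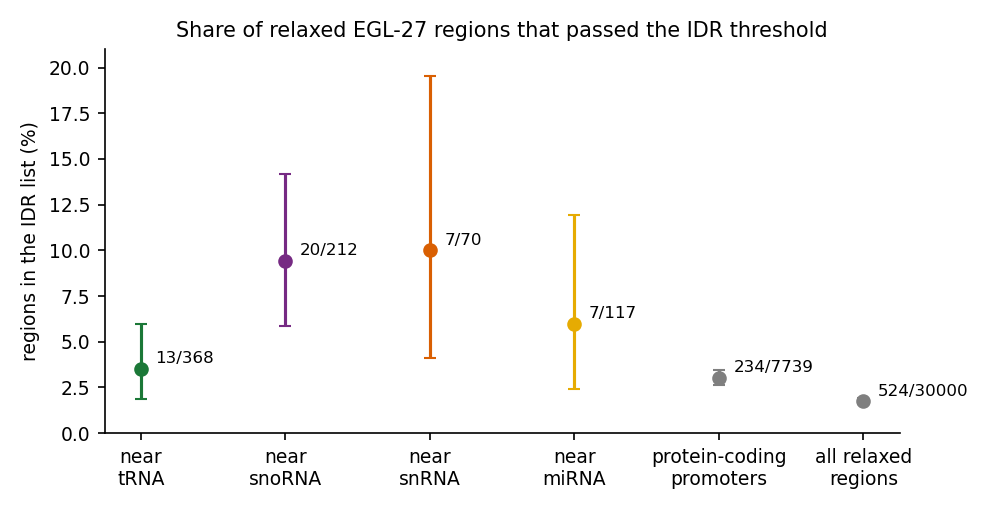
Percent of relaxed regions (y axis) that were in the IDR list, for regions near tRNA, snoRNA, snRNA and microRNA genes, in protein-coding promoter windows and over all relaxed regions; bars are exact 95% binomial intervals and labels give the counts. Regions near snoRNA genes stood at 9.43% and regions near tRNA genes at 3.53%, against 1.75% of all regions.

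Support by the single replicates was also higher than in the whole list. A region of all 3 replicate lists covered the summit of 57 tRNA-near members (15.5%, 11.9 to 19.6) and of 47 snoRNA-near members (22.2%, 16.8 to 28.4), against 6.08% of all relaxed regions. When only the highest regions of each replicate were taken, as many as the IDR list holds, they covered in all 3 replicates 3 tRNA-near members (0.815%, 0.168 to 2.36) and 6 snoRNA-near members (2.83%, 1.05 to 6.06), against 0.463% of all. On this stricter count the tRNA interval includes the value of all regions and the snoRNA interval does not. No replicate covered 22 of the 368 tRNA-near members (5.98%, 3.78 to 8.91) and 22 of the 212 snoRNA-near members (10.4%, 6.62 to 15.3), against 15.04% of all relaxed regions.

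The rule was then applied to each replicate's own list, so that heights could be compared over replicates. The median percentile of tRNA-near regions was 60.1 in replicate 1, 65.1 in replicate 2 and 58.1 in replicate 3. That of snoRNA-near regions was 64.0, 77.0 and 71.5 in the same order, and that of the other regions 49.9, 49.7 and 49.6. Both biotypes were above the other regions in 3 of 3 replicates, and snoRNA-near regions were above tRNA-near regions in each. In the pooled list the medians of the 2 biotypes stood in the other order, at percentiles 77.1 near tRNA genes and 75.9 near snoRNA genes. The tRNA-near median minus the snoRNA-near median was −9.75 ± 5.09 percentile points (mean ± SD, n = 3; exact two-sided sign-flip permutation p = 0.25). The difference from other regions was 11.3 ± 3.59 points for tRNA-near and 21.1 ± 6.58 points for snoRNA-near regions (n = 3; exact sign-flip permutation p = 0.25 each). With 3 replicates 0.25 is the smallest p this test can give, before and after Benjamini-Hochberg adjustment over the 3 differences, so none could pass 0.05.

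**Figure D2:**
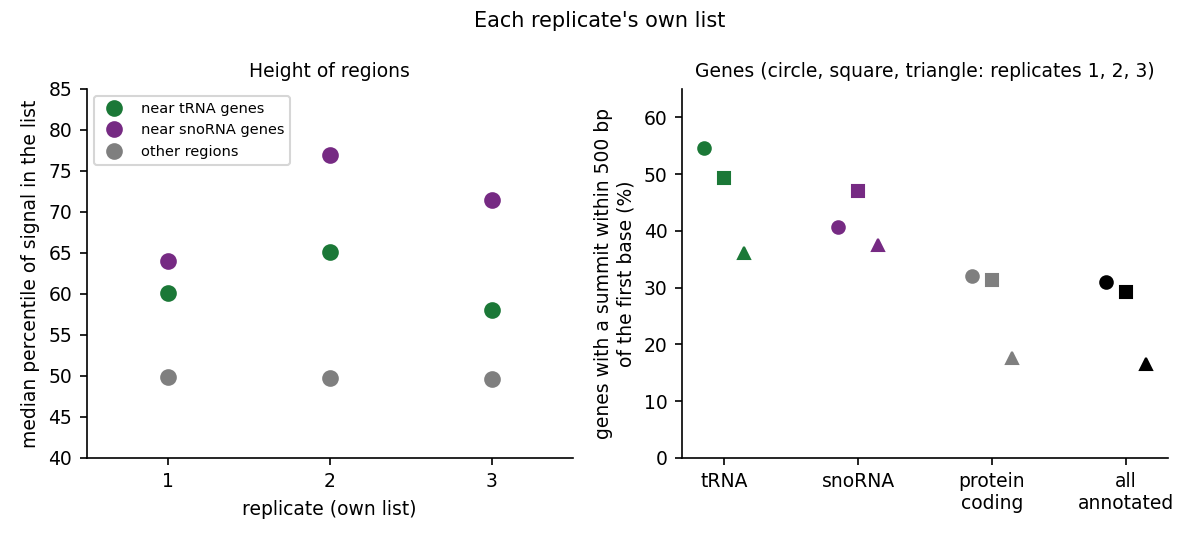
Left, median percentile of signal (y axis, 100 = highest) of regions near tRNA genes, near snoRNA genes and of other regions in the own list of each replicate (x axis). Right, percent of genes with a summit within 500 bp of their first base in each replicate's list, for tRNA, snoRNA, protein-coding and all annotated genes; snoRNA-near regions stand highest at left in all 3 replicates, between 64.0 and 77.0.

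Seen from the genes, 381 of 612 tRNA genes had a relaxed region within 500 bp (62.3%, 58.3 to 66.1) and 178 of 346 snoRNA genes did (51.4%, 46.0 to 56.8). Counted from the first base alone, the same point for every gene, the shares were 60.1% for tRNA genes and 48.6% for snoRNA genes, against 34.2% for protein-coding genes and 31.3% for all annotated genes. An IDR summit lay that close to the first base of 14 tRNA genes (2.29%, 1.26 to 3.81) and 19 snoRNA genes (5.49%, 3.34 to 8.44), against 1.03% of all annotated genes. Over all annotated genes the shares are lowered by 15363 piRNA genes, at 20.6% with a region and 0.137% with an IDR region. The 7764 genes of biotype ncRNA stood at 45.4% with a region (44.3 to 46.5), inside the snoRNA interval of 43.2 to 54.0. Their share with an IDR region was 2.18% (1.86 to 2.53), inside the tRNA interval. For lincRNA genes the shares were 37.1% with a region and 2.58% with an IDR region (0.842 to 5.91). Among the other short RNA genes, 38.8% of snRNA and 41.8% of microRNA first bases had a region. An IDR region was near 4.65% of snRNA genes (1.73 to 9.85) and 3.45% of microRNA genes (1.59 to 6.45), intervals that overlap those of tRNA and snoRNA genes. The share within 500 bp of tRNA first bases exceeded that of protein-coding first bases by 22.5, 18.0 and 18.5 points in replicates 1, 2 and 3, and for snoRNA genes by 8.64, 15.8 and 19.97 points (exact sign-flip permutation p = 0.25 each, adjusted p = 0.286 over 8 such differences). The tRNA share minus the snoRNA share was not of one sign in the replicates: 10.5, 2.79 and −1.89 points (exact sign-flip permutation p = 0.5).

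Summits collected at the gene itself, inside and just upstream of tRNA genes and mostly just upstream of snoRNA genes. Along the gene's strand, 100 tRNA-near summits lay inside the nearest tRNA gene (27.2%, 22.7 to 32.0) and 91 in the 100 bp upstream of it. The density was 2.18 summits per kb inside tRNA genes and 1.55 in the 100 bp upstream, against 0.299 over the genome, which is 7.29 and 5.17 times the genome's. At snoRNA genes the order was reversed: 71 summits lay in the 100 bp upstream and 31 inside the gene. The density there was 2.08 per kb upstream and 0.653 inside, or 6.94 and 2.18 times the genome's. By 251 to 500 bp upstream the density was near the genome's at both, 0.230 per kb at tRNA genes and 0.382 at snoRNA genes. A tRNA gene has a median length of 72 bp, and a region a median width of 356 bp, so a region centred inside the gene also covers its flanks.

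Summits inside the gene or in the 100 bp upstream were also the higher ones. They made up 191 of 368 tRNA-near members (51.9%) and had a median signal of 12.4, against 8.89 for the other tRNA-near members. They made up 102 of 212 snoRNA-near members (48.1%), with a median signal of 14.1 against 8.49. For tRNA genes 10 of the 13 IDR summits were of this kind, 6 of them upstream and 4 inside, and for snoRNA genes 9 of 20, with 8 upstream and 1 inside. The median position of these IDR summits was −37.5 bp from the first base of tRNA genes and −44 bp from that of snoRNA genes. At tRNA genes the IDR share was 6.59% in the 100 bp upstream (2.46 to 13.8) and 4% inside (1.10 to 9.93). At snoRNA genes it was 11.3% in the 100 bp upstream (4.99 to 21) and 3.23% inside (0.0816 to 16.7). Upstream and inside intervals overlap in both, so a shift of IDR summits upstream is not shown. For tRNA-near summits inside the gene or in the 100 bp upstream the IDR share was 5.24% (2.54 to 9.42). It was 1.69% for the other tRNA-near summits (0.351 to 4.87). For snoRNA-near summits it was 8.82% in that place (4.11 to 16.1) and 10% for the other ones (5.10 to 17.2). The intervals overlap within each biotype, so these few IDR regions do not show a different spread between the biotypes. In the replicates' own lists the share of summits in this place was 46.9%, 37.2% and 49.8% at tRNA genes and 38.5%, 37.6% and 44.97% at snoRNA genes, in replicates 1, 2 and 3.

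**Figure D3:**
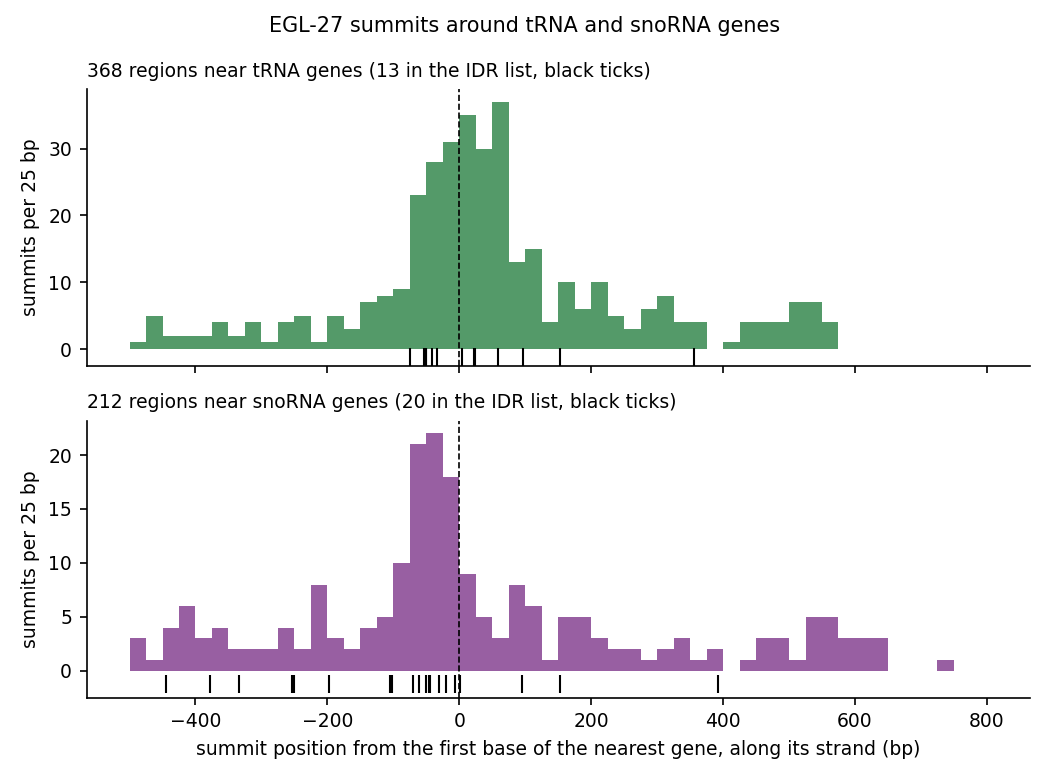
Number of summits per 25 bp (y axis) by position from the first base of the nearest gene along its strand (x axis, bp), for 368 regions near tRNA genes (top) and 212 near snoRNA genes (bottom); black ticks mark IDR summits. tRNA-near summits are centred on the gene, with 100 inside it, and snoRNA-near summits on the 100 bp before it, which held 71.

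The IDR members near tRNA genes belonged to 12 genes, and 9 of the 13 summits were on the X chromosome (69.2%, 38.6 to 90.9). X holds 276 of the 612 tRNA genes (45.1%) and held 182 of the 368 tRNA-near members (49.5%). The interval includes both of these shares. The highest IDR member was at C18A11.t2, a tRNA-Arg gene on X at 8036685 to 8036757, with pooled signal 72.2. Its summit was 284 bp downstream of the gene, and the region's signal was 26.8 in replicate 1, 20.6 in replicate 2 and 26.2 in replicate 3. A second IDR summit of this gene, 81 bp downstream with pooled signal 29.5, was covered by the same region in replicates 1 and 2 and by another, of signal 7.86, in replicate 3. With summits closer than 1000 bp counted once, the IDR share was 12 of 316 near tRNA genes (3.80%) and 19 of 171 near snoRNA genes (11.1%). F41D9.t3 (tRNA-Asn) had pooled signal 49.2 and replicate signals of 14.5, 18.2 and 10.9, and it lies in an intron of sulp-3, a gene of the sulfate permease family, on the opposite strand. C33G3.t2 (tRNA-Lys) had pooled signal 40.4, with 12.2, 17.0 and 13.2 in replicates 1, 2 and 3, and ranked between 249 and 344 in every replicate list. Only it, C04A2.t1 and the higher C18A11.t2 summit were among the highest regions, as many as the IDR list holds, of all 3 replicates.

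Other tRNA members were uneven over replicates. C28G1.t1 (tRNA-Glu, pooled signal 42.9) ranked 44 in replicate 2 and 558 in replicate 3 but 10273 in replicate 1. This tRNA gene overlaps an exon of the protein-coding gene C28G1.2 on the same strand. Its summit was 23 bp downstream of the start of C28G1.2. R04A9.t1 (tRNA-Gln, pooled signal 31.4) ranked 248 in replicate 2, 1109 in replicate 3 and 2863 in replicate 1. rte-1 (tRNA-Glu, 31.2) ranked 514 in replicate 1, 4277 in replicate 2 and 1283 in replicate 3. The signals of C42D8.t1 (tRNA-Ile) were closer in rank, at 621, 285 and 611 in replicates 1, 2 and 3, as were those of M02F4.t1 (tRNA-Gly), at 354, 680 and 332. C37A2.t1 (tRNA-Cys) lies in an intron of cye-1, the cyclin E gene, with pooled signal 33.3. K04C2.t3 (tRNA-Lys) lies in an intron of brd-1, the worm counterpart of BARD1, with pooled signal 29.5. F42A10.t1 (tRNA-Ser) was the lowest, with 29.1. Outside the IDR list the 5 highest tRNA-near members, at Y104H12A.t1, F02D10.t2, R11.t1, C04E7.t1 and F57F5.t1, had pooled signals from 27.2 to 28.1, just under the lowest IDR value.

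The IDR members near snoRNA genes belonged to 19 genes. None of the 11 snoRNA-near members on X was in the IDR list (0%, 0 to 28.5), too few to show a difference. Chromosome II held 9 of the 20 summits (45%, 23.1 to 68.5), against 71 of the 346 snoRNA genes (20.5%), and 2 of the 9 belong to 1 gene. The highest was at C04A2.16, on II at 6843240 to 6843363 in an intron of egl-27 itself, with pooled signal 96.4 and 33.1, 37.9 and 24.2 in replicates 1, 2 and 3. This summit was 445 bp upstream of the snoRNA. A second summit of the same gene, 30 bp downstream, had pooled signal 37.1 and ranked 9962 in replicate 1, 236 in replicate 2 and 5104 in replicate 3. C04A2.t1, a tRNA-Leu gene on II at 6853204 to 6853285, had pooled signal 45.4 and 11.2, 29.5 and 13.0 in replicates 1, 2 and 3. These 3 IDR members lie within 20 kb of the gene whose tagged form was inserted in the strain. The part of the insertion in them was not tested, and without the members of this neighbourhood the IDR share was 3.28% near tRNA genes and 8.57% near snoRNA genes.

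Some snoRNA members were at starts of protein-coding genes. The summit near F54E7.10, which lies in an intron of the ribosomal protein gene rps-12, was 251 bp upstream of the snoRNA and 122 bp upstream of ska-3, a gene for a spindle and kinetochore protein. Its pooled signal was 72.9, with 19.8, 23.6 and 23.7 in the replicates. The summit near Y24D9A.9, in an intron of rpl-7A, was 378 bp upstream of the snoRNA and 96 bp upstream of the start of rpl-7A, with pooled signal 38.3 and 9.89, 14.2 and 12.3 in the replicates. F39B2.14 lies in an exon of tmem-107, and its summit, of pooled signal 44.2, was 41 bp upstream of the start of that gene. In all, 10 of the 20 snoRNA-near IDR summits were in promoter windows (50%, 27.2 to 72.8) and 3 of the 13 near tRNA genes (23.1%, 5.04 to 53.8), against 234 of all IDR regions (44.7%). Both intervals include the share of the whole IDR list. Of the 9 that stood more than 100 bp from the snoRNA, 6 were in such a window.

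Other summits stood at the snoRNA or away from both. T08B2.13, in an intron of fars-1, a phenylalanyl-tRNA synthetase gene, had its summit 51 bp upstream, with pooled signal 46 and 14.6, 11.7 and 9.03 in the replicates. ZK484.9, in an intron of the ABC transporter gene haf-9 on the opposite strand, had its summit on the second base of the snoRNA with pooled signal 41.6, and it ranked 38 in replicate 1 but 6614 in replicate 2. C04G6.12 lies in an intron of mpk-2, a MAP kinase gene, on the opposite strand, and had its summit 30 bp upstream, with pooled signal 33.7. Its ranks were 411, 842 and 907. K02C4.7, in an intron of ltd-1, had its summit 6 bp upstream. T26A8.6, with pooled signal 30.3 and its summit 70 bp upstream, was not covered by any region of replicate 1. K02F3.15, in an intron of the bZIP transcription factor gene zip-2, had its summit 219 bp downstream, with pooled signal 52.8 and 8.02, 24.4 and 25.8 in the replicates. B0334.12, in an intron of the potassium channel gene twk-5, ranked 446 in replicate 2 and 13883 in replicate 1. K02C4.7 ranked 357, 532 and 5146 in replicates 1, 2 and 3, so that replicate 3 was the low one. The 5 highest snoRNA-near members outside the IDR list, at K07C10.2, ZK994.7, F07A11.15, C05D2.15 and smy-2, had pooled signals from 27.3 to 28.6.

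**Figure D4:**
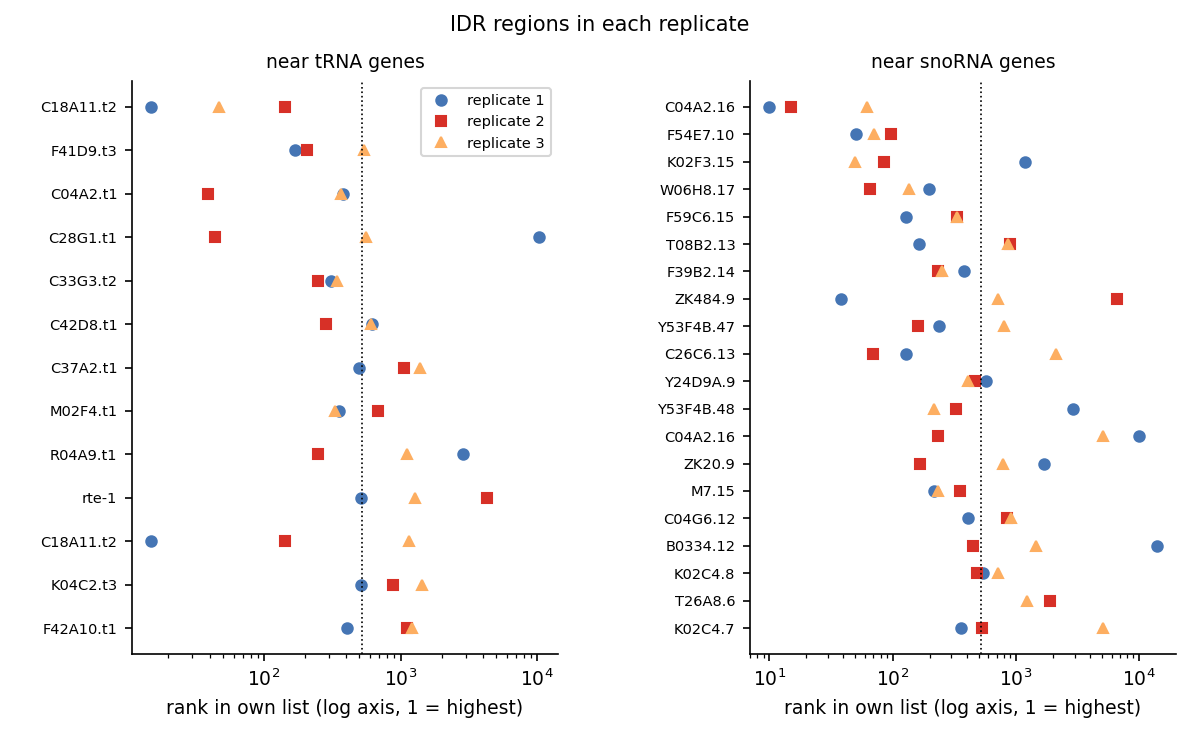
Rank in each replicate's own list (x axis, log scale, 1 = highest) of the regions that cover the IDR summits near tRNA genes (left, 13) and snoRNA genes (right, 20), from highest pooled signal at the top; the dotted line marks the rank equal to the number of IDR regions, and T26A8.6 has no region in replicate 1. The higher C04A2.16 summit, F54E7.10 and C33G3.t2 lie left of the line in all 3 replicates, while C28G1.t1 and B0334.12 stand at ranks 10273 and 13883 in replicate 1.

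The share of members with a host gene was near that of all tRNA genes and somewhat under that of all snoRNA genes. A protein-coding gene overlapped the nearest tRNA gene in 172 of 368 tRNA-near members (46.7%, 41.6 to 52.0), against 47.9% of all tRNA genes. It overlapped the nearest snoRNA gene in 122 of 212 snoRNA-near members (57.5%, 50.6 to 64.3), against 64.2% of all snoRNA genes. Read from the genes, 74 of the 124 snoRNA genes with no host had a region (59.7%, 50.5 to 68.4), against 104 of the 222 with a host (46.8%, 40.1 to 53.6). In the replicates' own lists the difference was 3.89, 9.34 and 7.87 points (exact sign-flip permutation p = 0.25, adjusted p = 0.286), higher without a host in 3 of 3. The share was 47.9% for the 142 snoRNA genes in an intron of the same strand and 35.7% for the 42 that overlap an exon of the same strand. Of the 19 snoRNA genes within a ribosomal protein gene of the same strand, 11 had a region (57.9%, 33.5 to 79.7) and 2 an IDR region, those of rps-12 and rpl-7A described above.

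tRNA genes are often clustered, here taken as 2 or more genes of the biotype within 2000 bp of each other. A tRNA cluster held the nearest gene of 135 tRNA-near members (36.7%, 31.7 to 41.8), against 44.3% of all tRNA genes; a cluster can share 1 region. A region lay near 173 of 271 clustered tRNA genes (63.8%, 57.8 to 69.6), against 208 of 341 single ones (61.0%, 55.6 to 66.2). These intervals overlap widely. The largest cluster, of 8 genes from F22F1.t9 to F22F1.t7 on X, had 3 regions near 6 of its genes, with signals from 6.85 to 18.9 and none in the IDR list. Of the 26 tRNA clusters with 3 or more genes, 9 had a region near every gene, 2 had none near any, and 1 had an IDR region, that of K04C2.t3. One region could lie near as many as 5 tRNA genes, and 63 of the 368 tRNA-near members lay near more than 1. snoRNA clusters were few: 48 genes in 22 clusters, of which 20 genes had a region (41.7%, 27.6 to 56.8), against 158 of 298 single snoRNA genes (53.0%, 47.2 to 58.8).

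tRNA genes on the X chromosome had a region at a higher share than those on the autosomes. It was 194 of 276 on X (70.3%, 64.5 to 75.6), against 187 of 336 on the autosomes (55.7%, 50.2 to 61.0). The difference was 12.3, 16.8 and 7.74 points in the lists of replicates 1, 2 and 3 (mean 12.3 ± 4.54, SD, n = 3; exact sign-flip permutation p = 0.25, adjusted p = 0.286). First bases of protein-coding genes differed in the same direction by 6.998, 4.45 and 4.38 points (mean 5.28 ± 1.49, SD, n = 3; exact sign-flip permutation p = 0.25, adjusted p = 0.286). The tRNA difference was the larger one in each replicate; whether the 2 differ was not tested. Of the snoRNA genes, 11 of the 33 on X had a region (33.3%, 18.0 to 51.8), against 167 of 313 on the autosomes (53.4%, 47.7 to 59.0).

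Many tRNA genes are identical copies: the 612 genes have 200 distinct sequences, and 143 genes have a sequence of their own. A region lay near 212 of the 317 tRNA genes with 10 or more identical copies (66.9%, 61.4 to 72.0), against 71 of the 143 unique ones (49.7%, 41.2 to 58.1). The difference was 15.6, 12.7 and 18.7 points in the 3 replicates (exact sign-flip permutation p = 0.25, adjusted p = 0.286). The nearest gene of each of the 13 IDR members near tRNA genes was a multi-copy gene, with 3 to 29 copies, and 1 unique gene also lay within 500 bp of such a summit. Among all 368 tRNA-near members the nearest gene was multi-copy in 296. The IDR share was 13 of 296 at multi-copy genes (4.39%, 2.36 to 7.39) and 0 of 72 at unique ones (0%, 0 to 4.99), and these intervals overlap. How reads that map to several copies were placed is not given in the sources used here, and its part was not tested. No 2 snoRNA genes have the same sequence. By isotype the share ran from 4 of 12 for tRNA-Trp (33.3%, 9.92 to 65.1) to 26 of 34 for tRNA-Ala (76.5%, 58.8 to 89.2) among isotypes with more than 1 gene, and the intervals of these extremes overlap.

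Sequence around the summits was searched for fixed letters on both strands, within 100 bp either side. The GA repeat GAGAGA was present at 95 of 368 tRNA-near members (25.8%, 21.4 to 30.6) and 41 of 212 snoRNA-near members (19.3%, 14.3 to 25.3), against 18% of all relaxed regions. Among IDR members it was present at 2 of 13 near tRNA genes (15.4%, 1.92 to 45.4) and 6 of 20 near snoRNA genes (30%, 11.9 to 54.3), against 296 regions of the IDR list (56.5%, 52.1 to 60.8). The members in the IDR list thus held it at a lower share than the list as a whole, and the snoRNA interval reaches into the list's. The GC content of the same windows had a median of 46.3% at tRNA-near and 49% at snoRNA-near IDR members, against 47.3% over the IDR list. The E-box CACGTG was at 4 tRNA-near members (1.09%) and 9 snoRNA-near members (4.25%), against 4.27% of all regions.

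B box letters, here GTTCNANNC on either strand, were found at 73.8% (67.0 to 79.9) of the tRNA-near summits that lay inside the gene or in the 100 bp upstream, as the B box is part of the tRNA gene. At snoRNA-near summits in that place they were found at 27 of 102 (26.5%, 18.2 to 36.1), and at the other snoRNA-near summits at 5 of 110 (4.55%, 1.49 to 10.3), against 7.53% of all relaxed regions. A tRNA gene lies within 500 bp of 2 snoRNA-near members at most, since 2 members lie near both biotypes. The letters were therefore sought in the 100 bases upstream of every snoRNA gene, on the gene's strand, a search that was added after the sequences had been seen. They were present upstream of 33 of 346 snoRNA genes (9.54%, 6.66 to 13.1). The same search gave 5 of 612 tRNA genes (0.817%), 1 of 129 snRNA genes, 10 of 261 microRNA genes (3.83%) and 285 of 19973 protein-coding genes (1.43%). On the opposite strand it gave 3 snoRNA genes (0.867%).

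The upstream stretches of 6 such genes are shown, those of highest signal whose highest summit lay in the stretch or in the gene and that holds no protein-coding exon, on the same chromosomes. These genes were picked after their values had been seen. Each ends on the base before the snoRNA, and capitals mark the B box letters.
C04G6.12: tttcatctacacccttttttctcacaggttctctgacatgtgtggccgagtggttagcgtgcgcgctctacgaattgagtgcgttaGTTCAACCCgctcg
T03F7.8: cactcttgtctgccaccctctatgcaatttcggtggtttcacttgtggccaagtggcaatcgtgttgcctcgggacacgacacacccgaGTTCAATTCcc
Y43F8C.22: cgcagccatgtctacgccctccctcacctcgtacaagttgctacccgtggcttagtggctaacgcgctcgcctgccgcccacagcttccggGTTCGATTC
ZK546.18: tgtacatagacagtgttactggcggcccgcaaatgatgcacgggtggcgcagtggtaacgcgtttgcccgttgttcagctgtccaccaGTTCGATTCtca
F32E10.10: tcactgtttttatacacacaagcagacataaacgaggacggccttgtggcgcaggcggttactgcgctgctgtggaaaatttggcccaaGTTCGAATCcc
C41C4.11: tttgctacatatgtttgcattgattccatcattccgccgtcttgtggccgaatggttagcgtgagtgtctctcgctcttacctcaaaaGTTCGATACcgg

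The letters started at base 87 to 92 of these stretches, close before the snoRNA. The summit fell on base 71 at C04G6.12 (chrII:5105232-5105331, minus strand), base 93 at T03F7.8 (chrV:11314158-11314257, plus strand) and base 54 at Y43F8C.22 (chrV:19643188-19643287, minus strand). It fell on base 79 at ZK546.18 (chrII:4942520-4942619, minus strand), base 39 at F32E10.10 (chrIV:7574022-7574121, plus strand) and base 47 at C41C4.11 (chrII:8107271-8107370, minus strand). The replicate signals were 7.37 and 11.4 at T03F7.8, which no region of replicate 3 covered, and 5.72, 7.86 and 10.1 at Y43F8C.22. Over all 33 genes the letters started a median of 14 bases before the snoRNA (range 9 to 68), and in 25 of them 9 to 20 bases before it. A box letters, here TNGCNNAG, were upstream of 47 snoRNA genes (13.6%, 10.2 to 17.6) against 3.20% of protein-coding genes. On the opposite strand they were found at 24 snoRNA genes (6.94%, 4.50 to 10.2). On the gene's strand they were upstream of 5.23% of tRNA, 3.88% of snRNA and 5.36% of microRNA genes. They stood ahead of the B box letters at 14 snoRNA genes (4.05%), against 2 of 19973 protein-coding genes. No annotated tRNA gene overlapped the 100 bases upstream of any of the 33 snoRNA genes. A gene of biotype ncRNA overlapped them at 7 of the 33, a pseudogene at 2, a snoRNA gene at 1 and a protein-coding gene at 18.

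The snoRNA genes with and without these letters were set side by side as a description only. The letters were sought because they had been seen at the members' summits, so counting the same summits by them restates that observation, and no test is given. The share with an EGL-27 region was 28 of 33 (84.8%, 68.1 to 94.9) with the letters and 150 of 313 (47.9%, 42.3 to 53.6) without them. A summit inside the gene or in the 100 bp upstream was found at 23 of 33 (69.7%, 51.3 to 84.4) and 78 of 313 (24.9%, 20.2 to 30.1). In the replicates' own lists the share was 69.7%, 63.6% and 60.6% with the letters and 42.5%, 47.3% and 37.1% without, a difference of 27.2, 16.4 and 23.6 points (mean 22.4 ± 5.52, SD, n = 3). These lists come from the same reads as the pooled list. The highest region near each gene had a median signal of 16.9 with the letters and 10.9 without. An IDR region lay near 3 of 33 (9.09%, 1.92 to 24.3), at T08B2.13, ZK484.9 and C04G6.12, and near 16 of 313 without the letters (5.11%, 2.95 to 8.17), so at the IDR threshold the intervals overlap. Protein-coding hosts were about as frequent in both, 63.6% with the letters and 64.2% without.

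**Figure D5:**
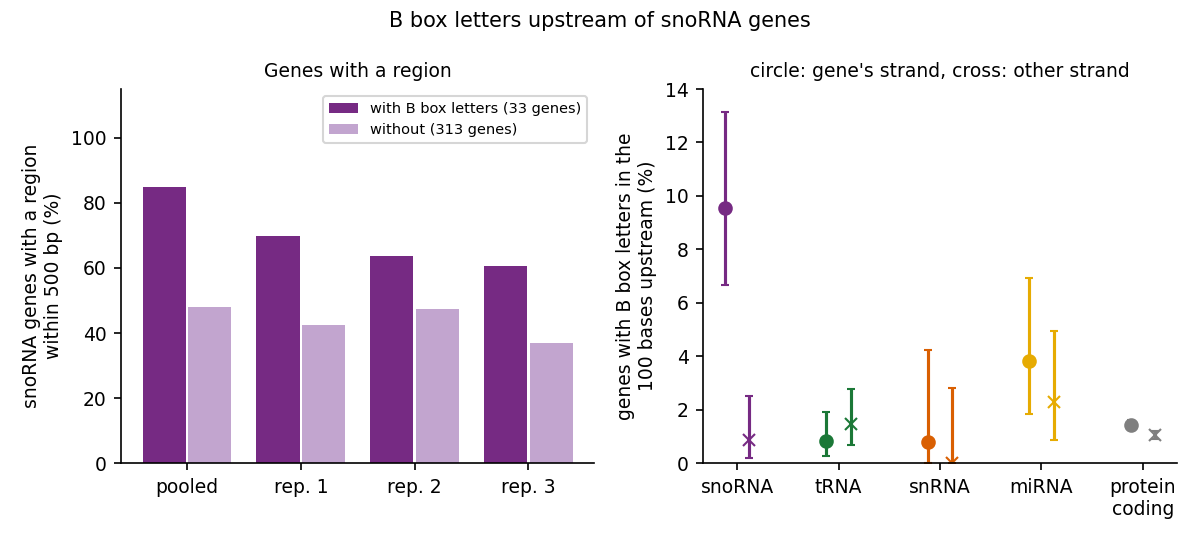
Left, percent of snoRNA genes with a region within 500 bp (y axis), for 33 genes with B box letters in the 100 bases upstream and 313 without, in the pooled list and in each replicate's list; the genes with the letters stand higher in all 4, at 84.8% against 47.9% in the pooled list. Right, percent of genes of each biotype with B box letters in the 100 bases upstream, on the gene's strand (circles) and the other strand (crosses), with exact 95% binomial intervals; snoRNA genes stand highest at 9.54% on their own strand.

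Near the 500 bp limit, the outermost members were at C15F1.15 (499 bp, signal 13.5), B0041.9 (495 bp, 18.3) and F26A10.28 (495 bp, 6.53). Just outside it were summits 503 bp from C54G4.16 (7.98), F53B6.t1 (5.78) and ZK380.t1 (8.04). None of these 6 was in the IDR list.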

How the data were processed

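The data were ChIP-seq region lists of 3 biological replicates of whole L1 larvae, analysed as 1 group with the replicate numbers from the labels. The authors deposited relaxed lists per replicate and for all replicates together, and an IDR list, each against 1 shared control alignment; for aligner, caller and settings the sources used here give no name. Each region's deposited signal has no stated scale and was used to rank and describe regions within a list. The deposited −log10 q-value was at its maximum, 3.17, in 56 members and gave no ranks. Positions are summits, from the deposited summit offset (1-based, ce11; the ce10 lists were left aside). Depth is unknown.

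Genes came from Ensembl release 115 (WBcel235) and tRNA isotypes from RefSeq by gene ID (all 612 and 346 genes matched). Shares have exact 95% binomial intervals over regions or genes. Over replicates, exact sign-flip permutation tests with Benjamini-Hochberg adjustment were used, fitted to medians or shares per replicate. Named genes were those nearest IDR members, the 5 highest members of each biotype outside the IDR list, and members at the 500 bp limit. The members, lists and rules were chosen with earlier results of these data known. Searches for letters upstream of genes, and comparisons by copy number and chromosome per replicate, were added after the data had been seen. Functions were tested on simulated data. The tools were numpy 2.4.6, pandas 2.3.3, scipy 1.17.1 and matplotlib 3.10.9 under Python 3.11.15.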

Additional observations from a re-analysis of the deposited data

How the results depend on the processing

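Of 72 alternatives over 20 results, 46 kept the value and 26 moved it. A share was kept when it stayed within its main interval, and a rank difference when its mean kept its sign. The B box difference was kept when it stayed within a fixed factor of its main value. A reversal could be scored only for the rank differences, by the sign of their mean, and for the B box difference. None of these reversed, and the other results, which are shares, could only be kept or moved. With the IDR list shortened to its higher 50%, by signal, the IDR share was 1.36% near tRNA genes and 4.72% near snoRNA genes, against 0.873% of all regions. IDR was not rerun without a replicate; the share among the highest regions of both remaining replicates, another measure, was 1.09% to 1.36% and 3.30% to 4.25%, against 0.670% to 0.793%. GAGAGA was at 14.7% and 12.7% (against 10.2% of all regions) within 50 bp, and at 38.04% and 35.4% (against 28.5%) within 200 bp. With a 250 bp window, 33.2% of tRNA-near and 20.3% of snoRNA-near summits were inside the gene and 26.9% and 17.6% downstream, and 52.0% of tRNA and 41.0% of snoRNA genes had a region; with 1000 bp, 74.3% and 72.5% did. Same-strand hosts held 26.4% and 46.2%, and clusters within 5000 bp held 45.9% of tRNA-near members. The cause of these moves was not tested beyond the change of measure itself. The rank difference tRNA minus snoRNA, as a mean over replicates, ran from −12.7 to −6.98 points. The smallest difference in a single replicate was −3.93 points with the 500 bp window, −1.26 with 250 bp and −0.03 with 1000 bp. The share of snoRNA genes with a region, B box letters upstream minus none, was 36.9 points (added after the data were seen), 17.0 with a 1000 bp window, 26.2 over genes with no host and 38.2 outside promoter windows; as a mean over the remaining replicates' own lists, another measure, it was 19.95 without replicate 1, 25.4 without replicate 2 and 21.8 without replicate 3, against 22.4 over all 3. The study has 1 group of samples, so no pairing between groups was possible. Differences between kinds of region or gene were taken within each replicate, and the sign-flip permutation tests used these differences. Read depth, and so counting error within regions, is unknown.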
